A study of Mus musculus with 12 samples.

Results

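Back skin of mice that received minoxidil (MXD) was compared with back skin of mice that received N-CE, a cell extract of the cactus Notocactus ottonis, after 1 week of treatment (1W). MXD is a vasodilator used against hair loss and served as the positive control of the study. The comparison used the 4 DNA microarrays titled 1W out of 12 in the series. Male C57BL/6 mice (C57BL/6J in the sample records), 8 weeks old, were shaved on the back and were treated there with 200 µL daily from the day after. The agents were 3% MXD, 10% N-CE and the vehicle control (VC), a mixture of propylene glycol, ethanol and water at 5:3:2. RNA of whole back skin of 6 mice was pooled per group, so each group is 1 pool, and the 3 groups share the strain, the shaving and the vehicle. Each treated pool was hybridized against the same VC pool on a pair of arrays, 1 for each assignment of the dyes Cy3 and Cy5. MXD and N-CE never met on 1 array. Their difference was formed as log2 MXD/VC minus log2 N-CE/VC, once for the arrays with the treated pool in Cy5 and once for those with it in Cy3, and then averaged, so that the VC pool cancels. A positive value means higher in MXD and a negative value higher in N-CE. The SD is that of the 2 dye orientations (n = 2). It describes the measurement and not the mice, no test across mice is possible, and no p-value is given.

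A hair follicle passes through growth (anagen), regression and rest. In anagen, matrix cells at the base of the follicle divide and then differentiate into the hair shaft, which is built of hair keratins cross-linked by keratin-associated proteins (KAPs), and into the inner root sheath that guides the shaft. Follicular melanocytes make pigment only in anagen, so keratin, KAP, melanin and cell division transcripts of skin follow the growth phase. Skin also holds epidermis, dermis, fat, a thin sheet of skeletal muscle and immune cells, all of which add RNA to a whole-skin pool.

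The epidermal markers Krt14, Krt1, Krt10 and Lor and the dermal markers Col1a1 and Col3a1 were well above background in all 8 channels and differed between MXD and N-CE by -0.51 to 0.22 on the log2 scale. Between 61.1% and 67.6% of the 43379 transcript spots were well above background per channel, 0 were saturated, and 169 to 233 per array carried an outlier mark and were left out. Of 20015 genes, 14537 were measured in both treated pools, 524 in MXD alone, 223 in N-CE alone and 4731 in neither. Over the 14537 genes the median difference was -0.06, the median SD was 0.06, and the orientations correlated across genes with r = 0.87 as a description, since genes are not replicates. VC was the same RNA on all 4 arrays, and its signal beside MXD was set against its signal beside N-CE as the technical level. This difference was past 2-fold in both dyes for 5 genes higher on the MXD arrays and 2 higher on the N-CE arrays, with Saa3 and Sprr1b among the former. Its median over the 14537 genes was 0.11, higher on the MXD arrays. In absolute size the median was 0.13, against 0.21 for MXD minus N-CE.

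A gene was counted as past 2-fold when its difference was at least 1 on the log2 scale in the same direction in both orientations. MXD was higher than N-CE for 395 genes, 2.72% of those measured in both pools, and N-CE was higher than MXD for 60 genes, 0.413%. The second count was the less stable, at 15 after normexp, a model-based background correction that shrinks ratios of dim probes, 20 with treated channels compared without VC and 31 with arrays centred on their median, against 262, 258 and 435 for the first. Among genes above background in all 4 treated channels, the 10 highest in MXD were mainly hair genes. They were Oca2, Saa3, Krt33a, Krtap17-1, Gm10229, Tchh, Otop2, Krt33b, Krtap12-1 and Krtap19-2, with differences of 3.52 to 3.98, or 11.5-fold to 15.7-fold. On the same condition, the 10 genes highest in N-CE were Hamp2, BC023105, Gbp6, Ido1, Tgtp1, Cyp2g1, Gbp4, Serpina3k, Gbp5 and Gbp2, with differences of -1.46 to -2.04, or 2.74-fold to 4.10-fold. Of these, BC023105, Ido1 and Serpina3k were not past 2-fold after normexp, at -0.84, -0.74 and -0.45, and Gbp6 was at -1.12. Against VC, the 395 genes had a median of 0.48 in MXD and -1.13 in N-CE, and for 350 of them the distance of N-CE from VC made up the larger part of the difference. The 60 genes had a median of -0.68 in MXD and 0.58 in N-CE against VC, and for 34 of them the larger part was the distance of MXD from VC. Both treatments are set against the same VC here, so these values are not independent of each other. The counts depend on the threshold. Within 0.1 of it lay 51 genes inside and 61 outside on the MXD side, and 32 inside and 45 outside on the N-CE side. Among genes with an N-CE signal not well above background, MXD was at least 2-fold higher for 10, and in the other direction no gene reached 2-fold. Of the 395 and 60 genes, 128 and 14 belong to the 27 gene lists described below. The lists were chosen with earlier results of these data known, so their shares past 2-fold are descriptions and not independent support.

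**Figure D1:**
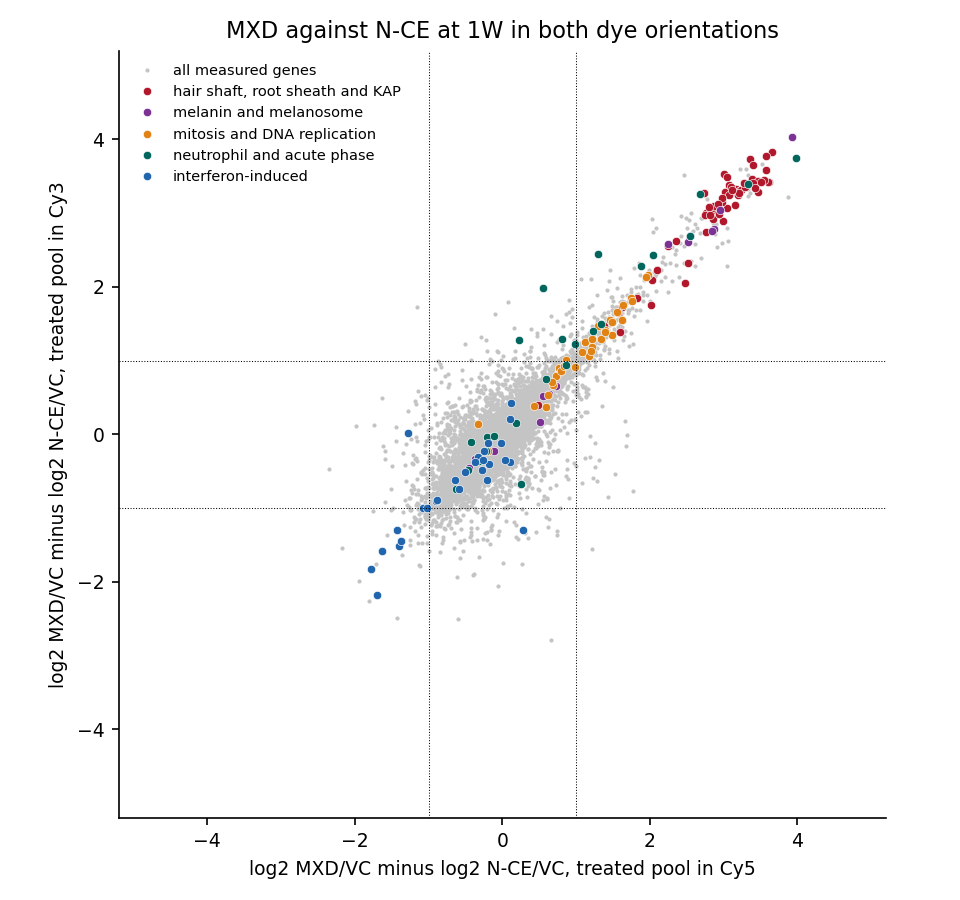
Difference of MXD and N-CE at 1W (log2 MXD/VC minus log2 N-CE/VC) with the treated pool in Cy5 (x axis) and in Cy3 (y axis). Each point is 1 of the 14537 genes measured in both pools, coloured by list, and dotted lines mark 2-fold. The structural hair genes lie at the upper right end and the interferon-induced genes past 2-fold at the lower left.

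The genes that build the hair shaft and its sheath were higher in MXD nearly without exception. Of 58 measured hair shaft keratins, inner root sheath genes and KAPs, 57 were past 2-fold and 0 were higher in N-CE, against 2.72% of all genes. The medians were 2.93 ± 0.14 (SD) for 12 hair shaft keratins, 3.25 ± 0.19 for 7 inner root sheath and companion layer genes, and 3.13 ± 0.10 for 39 KAPs. Against VC the 3 medians were 0.61, 0.44 and 0.79 in MXD and -2.30, -2.80 and -2.11 in N-CE. The vehicle skin thus lay between the treatments and closer to MXD. Summed over the 12 hair shaft keratins after loess and quantile normalization, the signal was 90498 to 90915 in MXD, 55356 to 60324 in VC and 10596 to 12917 in N-CE.

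Many promoters of these genes carry the same element at the same place. Of 39 KAP promoters in the RefSeq table (GRCm38.p6, 250 bases before to 50 after the start), 31 held TATAAA on either strand, or 79.5%, and 5 of 7 hair shaft keratin promoters did, or 71.4%, against 14.2% of all 27025 promoters. The letters lay 25 to 35 bases before the start in 22 KAP promoters and 3 keratin promoters, or 56.4% and 42.9%, against 2.35% of all, a window chosen after the positions were seen. A match is a description of sequence and not a measured site, and Krtap19-2 and Krtap19-4, with differences above 3 as well, have none in the window. For 6 keratins and KAPs chosen because they hold the letters and differ by more than 3, the 100 bases before the start are given 5′ to 3′ on the strand of the gene, with TATAAA in capitals.
Krt33b, chr11:100029869-100029968, minus strand: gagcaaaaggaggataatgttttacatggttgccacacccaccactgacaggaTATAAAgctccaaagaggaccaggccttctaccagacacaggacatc
Krt34, chr11:100041555-100041654, minus strand: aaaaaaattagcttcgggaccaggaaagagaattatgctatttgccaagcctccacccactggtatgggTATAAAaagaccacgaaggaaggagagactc
Krtap17-1, chr11:99993995-99994094, minus strand: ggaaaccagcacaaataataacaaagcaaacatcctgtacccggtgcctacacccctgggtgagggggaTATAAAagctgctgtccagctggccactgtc
Krtap16-3, chr16:88962874-88962973, minus strand: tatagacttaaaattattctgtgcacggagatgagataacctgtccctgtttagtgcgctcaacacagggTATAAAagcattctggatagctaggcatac
Krtap4-2, chr11:99635085-99635184, minus strand: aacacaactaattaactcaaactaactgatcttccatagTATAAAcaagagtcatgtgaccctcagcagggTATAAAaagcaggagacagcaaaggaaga
Krtap26-1, chr16:88647797-88647896, minus strand: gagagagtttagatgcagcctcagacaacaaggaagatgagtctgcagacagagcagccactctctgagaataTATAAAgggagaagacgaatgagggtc

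Krt33a, a type I hair keratin of the shaft cortex, was 0.99 and 0.89 above VC in MXD and -2.67 and -2.94 against VC in N-CE, with the treated pool in Cy5 and in Cy3. All MXD arrays were above VC and all N-CE arrays below, and the difference of 3.74 ± 0.12 is 13.4-fold. Its neighbour Krt33b gave 0.75 and 0.88 in MXD and -2.61 and -2.85 in N-CE, a difference of 3.55 ± 0.26. Krt34 (3.16 ± 0.12) and the type II hair keratin Krt86 (3.05 ± 0.01) followed. The 60-base probes of Krt33a, Krt33b, Krt34 and Krt31 matched each other at no more than 23 of 60 bases without gaps, so these family members were read by unlike probes. Krt84 was the only hair shaft keratin not past 2-fold, at 0.44, and was picked out for that reason.

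In the inner root sheath, Tchh, trichohyalin, which hardens the sheath after citrullination, was 0.52 on both MXD arrays and -3.06 on both N-CE arrays, a difference of 3.58 with an SD below 0.01. The sheath keratins Krt28, Krt27 and Krt71 differed by 3.27 ± 0.31, 3.26 ± 0.37 and 3.25 ± 0.06. All 7 measured members were past 2-fold, and Krt75 of the companion layer was the lowest at 2.06.

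The 39 measured KAPs ranged from 1.42 to 3.67 and all were past 2-fold. Those past 2-fold lie in clusters of the genome, with 18 on chromosome 16 between 88611474 and 89508568, 15 on chromosome 11 between 99411699 and 99854715 and 4 on chromosome 7 between 149360656 and 149489787 (mm9). Krtap17-1, a high-sulfur KAP, was 0.81 and 0.77 in MXD and -2.76 and -3.01 in N-CE, which is 12.8-fold. The glycine- and tyrosine-rich KAPs Krtap19-2 and Krtap19-4 stood higher above VC in MXD (1.90 and 1.59, then 1.73 and 1.87) and less far below it in N-CE (-1.72 and -1.84, then -1.87 and -1.54), with differences of 3.52 ± 0.13 and 3.51 ± 0.13. Krtap12-1 differed by 3.53 ± 0.18. Krtap19-5 was not well above background in N-CE and was higher in MXD by 1.82 after normexp. Probes within the Krtap19 group matched at no more than 31 of 37 aligned bases, and cross-hybridization was not tested.

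Of 21 measured genes of the hair matrix list, 13 were past 2-fold, all higher in MXD, against 2.72% of all genes. The list median was 1.81 ± 0.04 (0.35 in MXD and -1.33 in N-CE against VC), or 1.20 after normexp. The list holds regulators such as Lef1 and Hoxc13 and other genes such as Dsg4, Padi3, Crym and S100a3. These other genes had its largest differences, so the count is not one of regulators alone. Dsg4, the desmosomal cadherin of the hair cortex, was 0.46 and 0.92 in MXD and -3.41 and -2.30 in N-CE, and differed by 3.54 ± 0.46. After normexp the difference was 1.61. Padi3, which citrullinates trichohyalin, differed by 3.41 ± 0.26, Crym, a thyroid hormone binding protein, by 3.04 ± 0.10 and S100a3, a calcium-binding protein of the hair cuticle, by 2.99 ± 0.29. Lef1, the Wnt effector of the matrix and papilla, was 0.44 and 0.51 in MXD and -1.91 and -1.94 in N-CE, a 5.27-fold difference (2.40 ± 0.07). Hoxc13, a homeobox activator of hair keratin genes, differed by 2.18 ± 0.10, or 0.77 after normexp.

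Signalling genes were past 2-fold in part. Shh, the morphogen of the matrix, was not well above background in N-CE and was at least 2.09-fold higher in MXD. Of 13 measured Hedgehog and Wnt genes, 3 were past 2-fold and higher in MXD, among them Wif1, a secreted Wnt inhibitor (1.74 ± 0.04), and Wnt5a, a Wnt ligand (1.17 ± 0.11). No gene of the list was past 2-fold and higher in N-CE, and the median was 0.60 ± 0.01, or 0.84 without the background filter and 0.24 with treated channels compared without VC. Among 13 bulge stem cell and resting follicle genes the median was 0.05 ± 0.05, near that of all genes, and Tbx1 and Lhx2, transcription factors of the stem cell compartment, were past 2-fold, both at 1.28.

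Of 15 measured melanin and melanosome genes, 8 were past 2-fold, all higher in MXD, against 2.72% of all genes, with a median of 1.62 ± 0.05. Against VC the median was 0.48 in MXD and -0.89 in N-CE. The other 7 measured members, Ednrb, Mitf, Kit, Mlph, Rab38, Sox10 and Rab27a, lay between -0.45 and 0.69. They include the transcription factors Mitf (0.59) and Sox10 (-0.35) and the receptor Kit (0.53), which were named after their values were seen. Whether these genes read melanocytes alone in whole skin was not tested. Fewer melanocytes and less RNA per melanocyte cannot be told apart in a whole-skin pool, and the same holds for every cell type named here.

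The letters CATGTG, a form of the E-box that basic helix-loop-helix factors such as Mitf bind, were in 8 of 14 melanin gene promoters of the RefSeq table, or 57.1%, against 14.1% of all promoters, read on both strands. Of the 8, Oca2, Trpm1, Slc24a5, Tyrp1 and Dct were past 2-fold, while Tyr, Mc1r and Slc7a11 were not measured in both pools. The 200 bases before the start of the 4 genes with the largest differences are given 5′ to 3′ (GRCm38.p6) with the motif in capitals, which reads CACATG where it lies on the other strand.
Oca2, chr7:56239559-56239758, plus strand: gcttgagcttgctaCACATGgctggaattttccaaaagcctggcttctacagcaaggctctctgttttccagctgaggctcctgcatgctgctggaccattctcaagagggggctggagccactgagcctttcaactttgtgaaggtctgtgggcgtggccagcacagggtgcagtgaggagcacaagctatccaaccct
Trpm1, chr7:64153635-64153834, plus strand: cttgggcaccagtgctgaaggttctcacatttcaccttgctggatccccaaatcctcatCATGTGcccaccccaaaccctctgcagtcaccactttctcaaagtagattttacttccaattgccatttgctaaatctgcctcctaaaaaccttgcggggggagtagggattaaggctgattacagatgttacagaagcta
Slc24a5, chr2:125067927-125068126, plus strand: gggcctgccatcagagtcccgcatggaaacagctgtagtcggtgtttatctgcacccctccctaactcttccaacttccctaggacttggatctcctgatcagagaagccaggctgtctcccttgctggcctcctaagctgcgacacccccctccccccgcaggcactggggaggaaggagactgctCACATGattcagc
Tyrp1, chr4:80834013-80834212, plus strand: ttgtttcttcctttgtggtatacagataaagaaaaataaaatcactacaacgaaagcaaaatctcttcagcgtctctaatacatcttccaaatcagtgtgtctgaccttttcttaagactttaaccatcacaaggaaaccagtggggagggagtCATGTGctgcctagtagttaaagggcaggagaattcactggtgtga

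Oca2, a melanosomal transporter, had the largest difference among genes past 2-fold and above background in all 4 treated channels. It was 1.09 and 0.78 in MXD and -2.84 and -3.25 in N-CE. The difference of 3.98 ± 0.08 was 2.28 after normexp, below the 3.72 of Krt33a. Trpm1, a melanocyte channel, differed by 3.00 ± 0.06 and Slc24a5, a melanosomal exchanger, by 2.83 ± 0.06. Tyrp1, an enzyme of eumelanin synthesis, was 0.73 and 0.82 in MXD and -2.10 and -1.93 in N-CE, a 6.95-fold difference with arrays of each pool close together. Tyr, tyrosinase, which starts melanin synthesis, was not well above background in either treated pool.

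Of 35 measured genes of mitosis and DNA replication, 22 were past 2-fold, all higher in MXD, against 2.72% of all genes, 33 were above 0, and the median was 1.19 ± 0.01 (0.35 in MXD and -0.86 in N-CE against VC). The mitotic kinase Aurkb was 0.47 and 0.48 in MXD and -1.50 and -1.68 in N-CE, a difference of 2.07 ± 0.13. The kinetochore motor Cenpe (2.04 ± 0.13), the chromosomal passenger Birc5 (1.8 ± 0.07) and the cytokinesis motor Kif20a (1.78 ± 0.04) followed. Genes of the replication fork stayed below 2-fold, with the 6 Mcm genes of the helicase between 0.68 and 0.94 and the clamp Pcna at 0.40, as picked out after their values were seen. The replication-dependent histones, noticed among the genes past 2-fold and not one of the lists, held 24 measured genes with a median of 0.84. Of these, 10 were past 2-fold and higher in MXD, against 2.72% of all genes, a description since the set was noticed there. H1f5 (2.26) and H2ac4 (1.90) led them. After normexp H1f1 (0.85) and H1f4 (0.99) were no longer past 2-fold, and the other members past 2-fold were at 1.15 to 1.92. Histone genes of 1 class are nearly identical, so their probes may share transcripts.

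**Figure D2:**
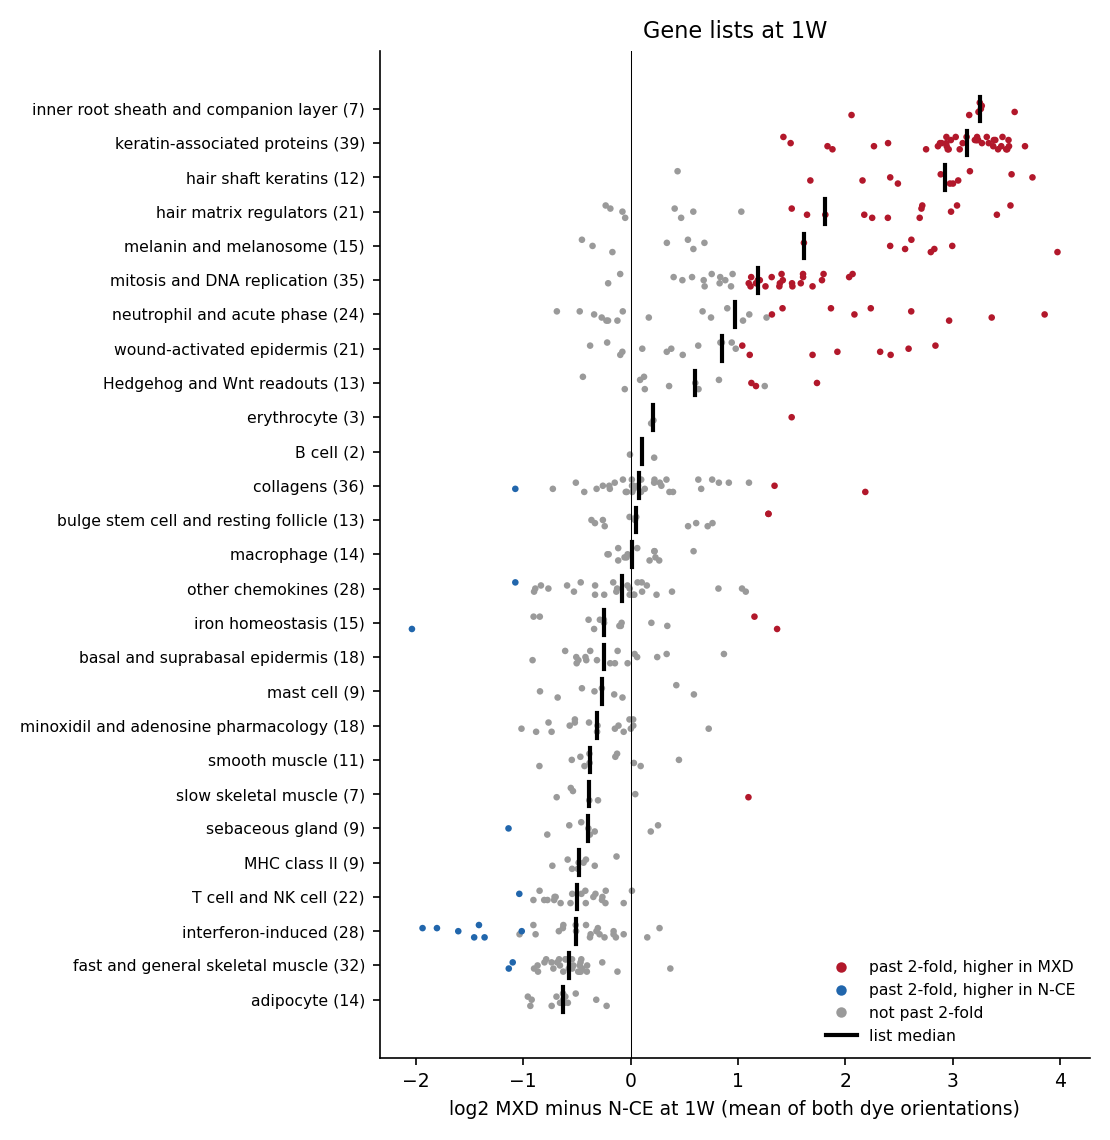
Difference of MXD and N-CE at 1W (log2, x axis) for every measured gene of the 27 lists (y axis, number measured in brackets). Red points are past 2-fold and higher in MXD, blue points past 2-fold and higher in N-CE, and black bars are list medians. Hair lists have medians of 1.81 to 3.25 except for the signalling and bulge lists, and adipocyte, muscle, interferon-induced and T cell lists lie below 0.

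Epidermal genes past 2-fold were wound-activated ones. Of 18 measured genes of basal and suprabasal epidermis, 0 were past 2-fold in either direction, with a median of -0.25 ± 0.06. Krt2, a late suprabasal keratin, was lowest at -0.91 ± 0.02 and Flg, filaggrin of the barrier, highest at 0.87 ± 0.06. Of 21 measured wound-activated genes, 8 were past 2-fold, all higher in MXD, against 2.72% of all genes, with a median of 0.85 ± 0.01. The paper names Krt16, Sprr2d and Lce3f as top genes of MXD at 1W from these arrays, so the share is a description. Against VC the list median was 0.89 in MXD and 0.19 in N-CE. Sprr2d, a cross-linked envelope protein, was 3.29 and 2.93 in MXD and 0.23 and 0.31 in N-CE, a difference of 2.84 ± 0.31. Krt16, the stress keratin of activated keratinocytes, was 2.92 and 2.64 in MXD and 0.31 and 0.06 in N-CE, a 6.02-fold difference (2.59 ± 0.02). Lce3f (2.42 ± 0.17), of the late cornified envelope family, and Krt6b (2.33 ± 0.05), the partner of Krt16, followed.

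Neutrophil and acute phase genes past 2-fold were likewise higher in MXD. Of 24 measured, 9 were past 2-fold, all higher in MXD, against 2.72% of all genes. The paper names Saa3, S100a8 and Stfa2l1, among others of the list, as top genes of MXD at 1W from these arrays. The share is thus a description and not independent support. The median was 0.97 ± 0.39 (1.1 in MXD and 0.17 in N-CE against VC), but 0.49 after normexp and 0.48 without VC. Saa3, the acute phase amyloid of local inflammation, was 4.73 and 5.00 in MXD and 0.76 and 1.26 in N-CE, a 14.5-fold difference (3.86 ± 0.17). The VC channel itself read Saa3 1.34 higher beside MXD than beside N-CE, and with the treated channels compared directly the difference was 3.26. The stefins Stfa2l1 (3.36 ± 0.04) and Stfa2 (2.97 ± 0.41), protease inhibitors of myeloid cells, and S100a8 (2.61 ± 0.11), a subunit of the antimicrobial protein calprotectin, followed. S100a8 was 2.89 on both MXD arrays and 0.35 and 0.20 on the N-CE arrays. Cxcl5, a neutrophil attractant, gave the largest lower bound of all genes, at least 4.49-fold higher in MXD. The neutrophil granule genes Camp, Ngp, Elane and Ltf were not well above background in either treated pool, and Mpo and Lcn2 differed by -0.27 and -0.21. Summed over the 24 genes, the normalized signal was 69384 to 80477 in MXD, 47348 to 48274 in N-CE and 38592 to 41067 in VC.

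The κB-type letters GGANTTTCC, read on both strands, were in 3 of 31 promoters of this list, or 9.68%, against 1.23% of all promoters. They are the neutrophil attractants Cxcl1, Cxcl2 and Cxcl3. Cxcl1 and Cxcl3 were not well above background in N-CE and were higher in MXD by 0.51 and 0.69 after normexp, and Cxcl2 was in neither pool. The 100 bases before their start are given 5′ to 3′ (GRCm38.p6) with the motif in capitals.
Cxcl1, chr5:90891145-90891244, plus strand: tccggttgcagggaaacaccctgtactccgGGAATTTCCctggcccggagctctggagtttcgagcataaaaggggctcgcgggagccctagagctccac
Cxcl3, chr5:90786001-90786100, plus strand: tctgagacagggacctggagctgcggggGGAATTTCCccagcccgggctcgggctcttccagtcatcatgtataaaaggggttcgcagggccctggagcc

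Of the 60 genes higher in N-CE, 7 were on the list of interferon-induced genes. Of 28 measured, these 7 were past 2-fold, against 0.413% of all genes, 26 were below 0, and the median was -0.51 ± 0.09 (-0.07 in MXD and 0.58 in N-CE against VC), or -0.29 after normexp. Gbp6 was -1.06 and -1.40 in MXD and 0.64 and 0.78 in N-CE, a difference of -1.94 ± 0.34. Tgtp1, an immunity-related GTPase, was -0.57 and -0.33 in MXD and 1.22 and 1.49 in N-CE, a difference of -1.8 ± 0.03. Gbp4 (-1.60 ± 0.03) and Gbp2 (-1.46 ± 0.07) followed, and all 4 lay below VC on both MXD arrays and above it on both N-CE arrays. These GTPases, which attack intracellular microbes, are known as targets of type II interferon. Taken as a family after the values were seen, 8 guanylate-binding proteins were measured with a median of -1.35, of which 7 were past 2-fold. Of 5 immunity-related GTPases with a median of -1.36, 4 were, against 0.413% of all genes, and both shares are descriptions. After normexp Gbp7 (-0.83), Gbp8 (-0.61), Gbp9 (-0.81) and Irgm2 (-0.98) were no longer past 2-fold. The other members past 2-fold were then at -1.12 to -1.61. Probes of the 7 guanylate-binding protein genes compared shared at most 25 of 48 aligned bases. Some list members better known from type I interferon were picked out after their values were seen. Isg15 was at -0.30, Ifit1 at -0.38, Mx2 at -0.14 and Oas1a at -0.16, closer to 0 than the list median of -0.51. Targets of the 2 types of interferon were not compared as sets, and the type of interferon was not tested. Ido1, a tryptophan-degrading enzyme that interferon induces, was -0.78 and -0.11 in MXD and 1.40 and 1.43 in N-CE, a difference of -1.86 ± 0.45 that was -0.74 after normexp.

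Of 22 measured T cell and NK cell genes, 21 were below 0, with a median of -0.50 ± 0.07 (-0.12 in MXD and 0.43 in N-CE), or -0.26 after normexp. Cd247, the zeta chain of the T cell receptor complex, was past 2-fold at -1.04 ± 0.02, but at -0.67 after normexp. Ifng, type II interferon itself, was measured in both pools and differed by -0.06. All 9 measured MHC class II genes were below 0, with a median of -0.48 ± 0.12 and 0 past 2-fold, and H2-Oa was lowest at -0.73 ± 0.07, before H2-DMa at -0.59 ± 0.03. The VC channel read H2-Oa 0.57 higher beside MXD than beside N-CE. H2-Oa was at -0.45 after normexp and -0.14 with treated channels compared without VC, against -0.52 and -0.64 for H2-DMa. Cxcl9, a T cell attractant induced by interferon, was the only 1 of 28 measured other chemokines past 2-fold, at -1.07 ± 0.09, and the list median was -0.08. Macrophage genes had a median of 0.02 over 14 measured genes and mast cell genes -0.27 over 9, with 0 past 2-fold in both. The largest in size were the scavenger receptor Marco (0.59 ± 0.01) and lysozyme Lyz2 (0.27 ± 0.08) in the first and Mrgprb1 (-0.84 ± 0.82) and Ms4a2 (-0.68 ± 0.90) in the second, the mast cell values no larger than about their SD. In the B cell list, Cd79b, of the B cell receptor complex, was at -0.01 ± 0.03.

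**Figure D3:**
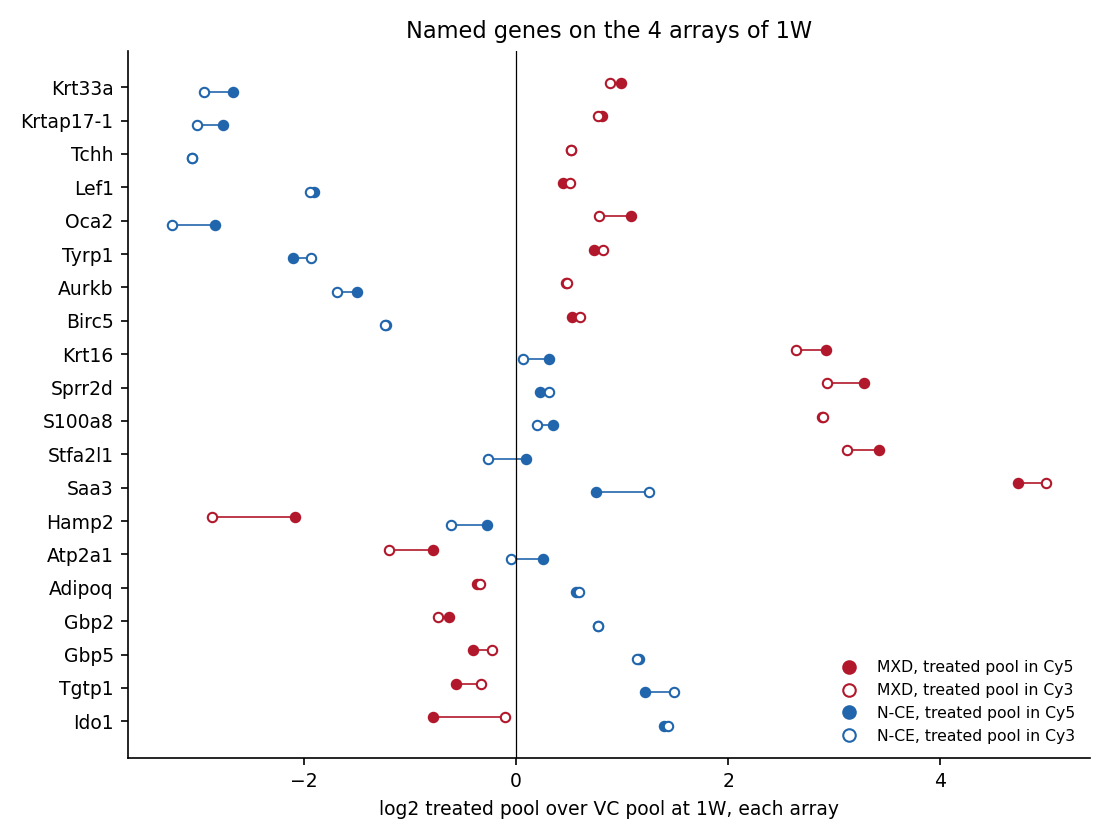
log2 of treated over VC (x axis) for 20 named genes (y axis) on each of the 4 arrays, MXD in red and N-CE in blue, filled with the treated pool in Cy5 and open in Cy3. Hair, pigment and mitosis genes from Krt33a to Birc5 lie below VC in N-CE, Krt16 to Saa3 lie far above VC in MXD, and Gbp2 to Ido1 lie above VC in N-CE and below it in MXD.

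Muscle and fat genes lay mostly below 0, with few past 2-fold. Of 32 measured fast and general skeletal muscle genes, 31 were below 0, as were 57.4% of all genes, and 2 were past 2-fold and higher in N-CE, against 0.413% of all, with a median of -0.57 ± 0.03 (-0.74 in MXD and -0.10 in N-CE against VC). Pygm, muscle glycogen phosphorylase (-1.13 ± 0.12), and Atp2a1, the calcium pump of fast fibres (-1.1 ± 0.08), were past 2-fold, and Myh4, fast myosin, was at -0.66 ± 0.17. Summed over the 32 genes, the normalized signal was 350264 to 406164 in MXD, 487001 to 543208 in N-CE and 536566 to 612002 in VC, so MXD had the lowest muscle signal, and its part in other differences was not tested. Slow muscle genes had a median of -0.38 over 7, but the slow troponin Tnnt1 was higher in MXD (1.1 ± 0.01, or 0.83 after normexp) and Myh3, embryonic myosin, was at least 2.91-fold higher in MXD. Smooth muscle genes had a median of -0.38 ± 0.08 over 11 with 0 past 2-fold, and Lmod1 (-0.85 ± 0.05) and Synpo2 (-0.55 ± 0.04) were largest in size. The smooth muscle median was -0.11 after normexp, and that of slow muscle 0.04 without the background filter. All 14 measured adipocyte genes were below 0, with a median of -0.63 ± 0.03 (-0.32 in MXD and 0.29 in N-CE against VC), and 0 were past 2-fold. Agpat2, of triglyceride synthesis, was lowest at -0.96 ± 0.13. Adipoq, the hormone of mature fat cells, was -0.37 and -0.34 in MXD and 0.56 and 0.59 in N-CE, a difference of -0.93 ± 0.01. Of 9 sebaceous gland genes, Awat2, a wax synthase, was past 2-fold at -1.14 ± 0.15, but at -0.60 after normexp.

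Among genes above background in all 4 treated channels, the gene highest in N-CE was Hamp2, a hepcidin gene. It was -2.09 and -2.87 in MXD and -0.27 and -0.61 in N-CE, a 4.10-fold difference (-2.04 ± 0.31), so it lay below VC in both pools and lowest in MXD. Hamp, the hepcidin gene that controls iron export, was above background in VC on all 4 arrays, on 1 N-CE array and on no MXD array. It lay below VC in both pools, at -2.73 and -3.27 in MXD and -1.56 and -3.26 in N-CE. The differences by orientation were -1.17 and -0.02. The 2 genes are neighbours on chromosome 7, and their probes matched at 42 of 59 aligned bases. The probes are given with mm9 positions, and capitals mark the 17 bases that differ in that alignment.
Hamp, chr7:31727490-31727549: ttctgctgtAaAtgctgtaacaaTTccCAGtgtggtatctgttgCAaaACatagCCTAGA
Hamp2, chr7:31707520-31707579: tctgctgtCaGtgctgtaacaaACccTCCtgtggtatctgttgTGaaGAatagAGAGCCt

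Of the 15 measured iron genes, the iron exporter Slc40a1 (1.37 ± 0.07) and the ferric reductase Cybrd1 (1.15 ± 0.01, or 0.95 after normexp) were past 2-fold and higher in MXD, and the list median was -0.25 ± 0.07, or -0.14 after normexp. Among 18 genes of minoxidil and adenosine pharmacology, 0 were past 2-fold in both orientations. Kcnj11 (-1.02 ± 0.07) and Kcnj8 (-0.88 ± 0.08), pore subunits of ATP-sensitive potassium channels, the kind that minoxidil sulfate opens, were both below VC in MXD and above it in N-CE. Sult1a1, the sulfotransferase that activates minoxidil, differed by -0.52 ± 0.07. Fgf2, a growth factor, was above background on 1 MXD array, on no N-CE array and in VC on 3 arrays, and gave no bound. The paper lists it among the top genes raised by N-CE at 1W, while the probe used here gave -0.78 and 0.39 in N-CE against VC. Pax6, an eye-field transcription factor, was above background in neither treated pool. Of 36 measured collagens with a median of 0.08, Col11a1 (2.19 ± 0.05) and Col12a1 (1.34 ± 0.00) were past 2-fold and higher in MXD and Col22a1 (-1.07 ± 0.04, or -0.47 after normexp) in N-CE, against 2.72% and 0.413% of all genes. Of 3 measured erythrocyte genes, the anion exchanger Slc4a1 was at 1.5 ± 0.01, or 0.92 after normexp, and the globin Hba-a1 at 0.19.

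The same contrast was taken at 2W and 3W, each from 1 other pool per group. The numbers past 2-fold were 78 higher in MXD and 369 higher in N-CE of 14779 genes at 2W, and 11 and 9 of 14202 at 3W. The orientations correlated across genes with r = 0.78 and r = 0.37. The KAP median went from 3.13 at 1W to 1.1 at 2W and 0.20 at 3W, the hair shaft keratin median from 2.93 to 0.98 and 0.18, and the mitosis median from 1.19 to 0.55 and 0.06. The interferon-induced median was -0.51, -0.88 and 0.23, and the fast muscle median -0.57, -1.01 and -0.09. Each week has its own arrays and its own pools, so array, pool and week cannot be told apart.

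**Figure D4:**
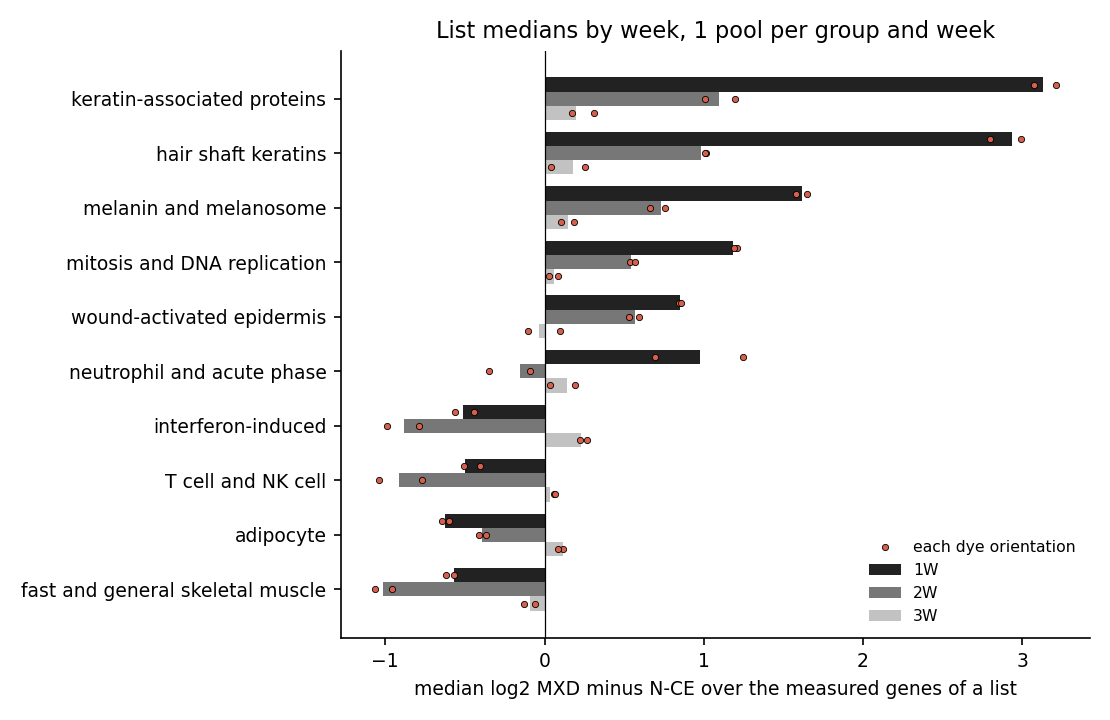
Median log2 difference of MXD and N-CE (x axis) of 10 lists (y axis) at 1W, 2W and 3W, with bars from 0 and red points for the dye orientations. The structural hair, melanin and mitosis medians are largest at 1W and at most 0.20 in size at 3W.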

How the data were processed

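The 4 arrays of 1W compare MXD and N-CE pools with VC. The authors pooled total RNA of 6 mice per group, labelled treated and VC pools with Cy3 and Cy5 and scanned the arrays with Agilent software, Feature Extraction 12.0.3.1 per the file headers and 11.0.1.1 per the submitters' processing notes. The deposited processed signal intensities of each channel were background-subtracted and LOWESS dye-normalized by the authors. The deposited log10 ratio of Cy5 over Cy3, in the array files and in the series matrix, comes from the same step. Probe positions are on mm9.

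From these intensities the log2 ratio was computed, turned to treated over VC by dye, and averaged over spots of a probe. Control and outlier-marked spots were left out, which left 24 genes, Krt5 and Dcn among them, without a value. Of 41174 probes, 27902 were named through a RefSeq accession, 5819 through a symbol or synonym, 2 kept the array's name, and 7451 had none. A gene is its probe with the highest mean intensity over the 4 arrays. It was measured in a pool if well above background on at least 1 of the pool's 2 arrays. Lower bounds compare treated channels after normexp (offset 50), loess and quantile normalization of mean intensities with limma 3.58.1 in R 4.3.3, the dim pool set to the lowest signal well above background. Each pool was read in both dyes. Other steps used Python 3.11.15, numpy 2.4.6 and pandas 2.3.3, and the calling step was tested on simulated data. The number of arrays limits the precision of the measurement only. Each group is 1 pool, so more arrays of the same pools would not describe the mice.

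Genes were named by a rule: the 10 highest and 10 lowest past 2-fold and above background in all 4 treated channels, the 4 largest bounds each way, up to 4 genes of each list past 2-fold or else the 2 largest, and a fixed set (Lef1, Dsg4, Shh, Hoxc13, Krt16, Saa3, Tyr, Myh4, Kcnj8, Sult1a1, Fgf2, Pax6, Hamp, Hamp2). Some genes that the rule names are not reported here, and bounds above a gene's fold after normexp with VC cancelled, or with orientations far apart, are not printed. Others are marked as picked after their values were seen or are list members. The members and lists were chosen with earlier results of these data known. Alternatives covered the log10 ratio column, normexp and loess, treated channels without VC, each orientation alone, the background filter, outlier spots, centring, the matrix values, all probes of a gene and a lower threshold. Promoter sequences are those of the RefSeq table, 1 per gene, on GRCm38.p6.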

Additional observations from a re-analysis of the deposited data

Results flagged for a closer look

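For 13 of 54 pairs of a list and a later week, the list median of MXD minus N-CE lay on opposite sides of 0 at 1W and at the later week in both dye orientations. These differences were not tested, since each week has 1 pool per group, and several medians were close to 0. Given as the 1W median minus the later one, the largest were 1.13 for neutrophil and acute phase genes against 2W, -0.74 for adipocyte and -0.74 for interferon-induced genes against 3W, 0.63 for Hedgehog and Wnt genes against 3W and -0.53 for T cell and NK cell genes against 3W. Macrophage genes gave 0.50 against 2W. Against 3W, slow skeletal muscle gave -0.47, minoxidil and adenosine pharmacology -0.38, bulge and resting follicle 0.37, iron homeostasis -0.36 and other chemokines -0.23. Collagens gave 0.29 against 2W and 0.21 against 3W.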

How the results depend on the processing

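No alternative turned the sign of any of the 395 or 60 genes past 2-fold that had a value, which the call itself fixes for each orientation alone, and all 627 values of the 63 named genes past 2-fold kept their sign. For named genes the log10 ratio column, the matrix values and the background filters return the same values. Centring shifts all genes equally and by far less than 2-fold. Most of the 627 values thus could not change sign, and mainly normexp and treated channels without VC could have changed it. Counts moved more. Normexp and loess gave 262 genes higher in MXD and 15 higher in N-CE, treated channels compared without VC 258 and 20, of which 247 and 16 were among the 395 and 60, and a mean of at least 1.5-fold 936 and 920. Centring gave 31 genes higher in N-CE, with the all-gene median at 0.01, no background filter 170, and the Cy5 and Cy3 orientations alone 150 and 203. Of list medians over 0.1 in size, 250 of 253 values kept their sign, and the exceptions were 2 for B cell and 1 for slow skeletal muscle. Here too the log10 ratio column and the matrix values could not change a sign. With normexp the medians were 2.76 for hair shaft keratins, 2.97 for KAPs, 1.08 for mitosis, 0.49 for neutrophil and -0.29 for interferon-induced genes. Without VC they were 2.96 for KAPs, 1.75 for melanin, 1.05 for mitosis, 0.48 for neutrophil, -0.39 for interferon-induced and -0.50 for fast muscle genes. Centring gave 1.69 for melanin, 1.26 for mitosis and -0.50 for fast muscle, no background filter 1.76 for melanin, Cy5 alone 1.21 for mitosis and Cy3 alone -0.62 for fast muscle. The causes were not tested. No paired analysis was possible because each group is 1 pool and no result comes from a test. Depth has no counterpart on arrays, and signal over background limits how far a difference can be read.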
